A study of Mus musculus with 22 samples.

Results

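Small nucleolar RNAs (snoRNAs) and small Cajal body RNAs (scaRNAs) are short non-coding RNAs that guide chemical modification of other RNAs. In the expression table, 114 gene symbols begin with Snord, Snora or Scarna followed by a digit. A level of 1 RPKM (reads per kilobase of transcript and per M reads) or more in at least 2 of the 10 RNA libraries was required, and 109 of the 23953 symbols in the table met both conditions. They comprise 65 Snord, 35 Snora and 9 Scarna genes. The 5 symbols left out were Snord116, Snord116l1 and Snord116l2, at 0 in every library, Snord64 with a highest value of 0.772 RPKM, and Snora19 with 5.29 and 0.54 RPKM in its highest and second highest libraries. Just inside the rule were Snord123, Snord1c and Snora35, whose second highest values were 5.05, 11.3 and 12.4 RPKM.

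Snord RNAs carry C and D boxes, associate with the methyltransferase fibrillarin and direct 2′-O-methylation, chiefly of ribosomal RNA. Snora RNAs fold into hairpins followed by an H box and an ACA box, associate with dyskerin and direct pseudouridylation. Scarna RNAs act in Cajal bodies, mostly on spliceosomal RNAs. In vertebrates most of them are cut from introns of host genes, many of which encode ribosomal proteins or are non-coding Snhg genes. The mature molecules have no poly(A) tail.

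The RNA libraries came from mouse myeloid cells with and without mutant huntingtin, which causes Huntington's disease through a long glutamine stretch. Adult microglia, the resident macrophages of the brain, were isolated from cortex, striatum and hippocampus on Percoll and sorted as CD11b+ CD45low, and bone marrow derived macrophages (BMDM) were grown in L-cell medium. Each of these primary cell types gave 1 library from Q175/175 mice (175 glutamines in both huntingtin alleles) and 1 from Q7/7 mice (7 glutamines), whose age the labels used here do not give. BV2, an immortalised mouse microglial line, was transduced with a pCDH-CMV lentivirus, in which the viral CMV promoter drives expression. The constructs carried the N-terminus of human huntingtin, with 128 glutamines (Nmu) or with 15 (Nwt), or no insert (pCDH). Each construct has 1 library at 24 h and 1 at a second time, for which the table header has 6 h and the labels 48 h, so that no order of the times is assumed. All BV2 cells carry the lentiviral vector, the empty-vector cells included. Whether libraries of a group stem from separate cultures, transductions or mice is not in the labels, and p-values may therefore reflect technical spread alone. Libraries were made from poly(A) RNA, which was fragmented, and short cDNA was cut from a gel, and the labels give the same protocol for all 10.

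The steps between the lowest RPKM values gave the reads behind each value and from them the depth, which came to 28.8 and 34.3 M reads in Q175 and Q7 microglia, 47.8 and 30.2 M in Q175 and Q7 macrophages, and 10.8 to 14.0 M in the BV2 libraries. Microglial markers matched the labels of the sorted cells. P2ry12 stood at 410 and 477 RPKM and Sall1 at 36.4 and 33.3 RPKM in Q175 and Q7 microglia, and Sall1 was at 0 in both macrophage libraries. BV2 cells had at most 0.061 RPKM of P2ry12, 0.014 of Sall1 and 0.074 of Cx3cr1. Tmem119 was at 288 and 334 RPKM in Q175 and Q7 microglia and at 0.232 and 0.701 RPKM in Q175 and Q7 macrophages. In BV2 cells Tmem119 was at 0.878 to 2.55 RPKM. The other myeloid markers were present in BV2 cells. Csf1r had 10.8 to 39.7 RPKM there, Itgam 16.4 to 25.5, Emr1 27.5 to 85.5 and Aif1 0.878 to 7.2 RPKM. The neuron markers Snap25, Rbfox3 and Syt1 were all detected in microglia, with a sum of 0.156 RPKM in Q175 and 0.442 RPKM in Q7 cells, and all 3 were at 0 in macrophages.

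Mature sequences of most members were not used here, but 7 microRNA hairpins in the table overlap a member on the same strand. The 4 below are shown because they display the core of a C box or an ACA box, in capitals. Reads that fall within the overlap also cannot be assigned to the hairpin or the member alone. Sequences are from RefSeq (GRCm38.p6), while the overlaps come from the mm9 coordinates of the table. In Mir5121 (GRCm38.p6 chr7:45126918-45126991, minus strand) bases 47 to 74 are the first 28 bases of Snord33, and the capitals mark UGAUGA, the core of the C box, which begins at base 7 of the member.
Mir5121: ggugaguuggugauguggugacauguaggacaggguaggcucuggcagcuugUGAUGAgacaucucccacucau
The other 3 lie at the 3′ ends of an Snora and of 2 Scarna genes: Mir664 in Snora36b (chr1:185242975-185243043, plus strand, bases 1 to 64 inside), Mir1843b in Scarna3a (chr1:159340358-159340423, plus strand) and Mir3069 in Scarna13 (chr12:105031077-105031141, minus strand). Capitals mark the ACA box, which ends 3, 4 and 1 bases before the annotated 3′ end of Snora36b, Scarna3a and Scarna13.
Mir664: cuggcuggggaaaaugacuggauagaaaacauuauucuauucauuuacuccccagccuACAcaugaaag
Mir1843b: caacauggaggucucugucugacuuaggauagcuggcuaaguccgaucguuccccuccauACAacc
Mir3069: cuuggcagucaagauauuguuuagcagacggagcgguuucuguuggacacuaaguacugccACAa
Both motifs were searched on the RNA strand alone. UGAUGA occurs in 27 of 1005 RefSeq mouse hairpins (2.69%) and ACA in 676 (67.3%), so that the position of ACA next to the 3′ end carries the description and its presence does not. Values of hairpin and member ran close for Snord33 and Scarna3a. Snord33 had 12989 and 15376 RPKM in Q175 and Q7 microglia and Mir5121 had 13416 and 16100.3 RPKM, while Scarna3a had 2909 and 2672 RPKM and Mir1843b 2962 and 2179 RPKM in the same libraries. Scarna13, at 438 and 602 RPKM in Q175 and Q7 microglia, stood above Mir3069, at 129 and 139 RPKM, and Snora36b, at 401 and 517 RPKM, above Mir664, at 109 and 151 RPKM.

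Members were abundant in primary cells and rare in BV2 cells. They took 4.35% of the implied reads of Q175 microglia (95% exact Clopper-Pearson interval 4.347 to 4.362) and 5.16% of those of Q7 microglia (5.148 to 5.163). In macrophages the share was 1.12% for Q175 (1.118 to 1.124) and 1.14% for Q7 cells (1.139 to 1.147). In the 6 BV2 libraries it lay between 0.01134 and 0.01406%, which is 1418 to 1930 reads over all members. These intervals cover counting error only, since PCR copies were not marked by molecular identifiers.

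**Figure D1:**
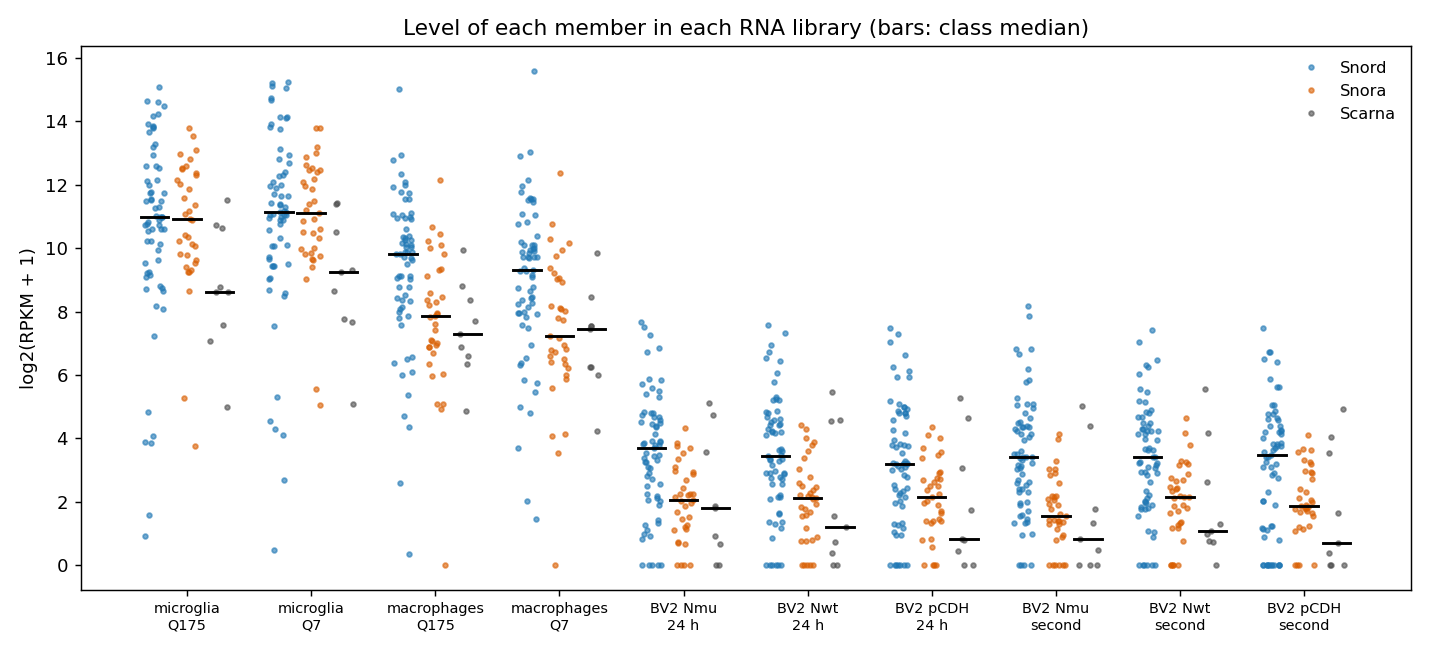
Level of every member in each of the 10 RNA libraries on a log2(RPKM + 1) axis, by class (Snord, Snora, Scarna), with a bar at the class median. Snord medians stand at 2014 and 2234 RPKM in Q175 and Q7 microglia, at 908 and 630 RPKM in Q175 and Q7 macrophages, and between 8.18 and 12.0 RPKM in BV2 libraries.

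The classes did not hold the same order in each cell type. In microglia the medians of Snord and Snora genes were close, with Snord at 2014 and 2234 RPKM and Snora at 1921 and 2228 RPKM in Q175 and Q7 cells. In macrophages the Snord median was 908 RPKM (Q175) and 630.0 RPKM (Q7), and the Snora median was 230.4 and 147 RPKM. In BV2 libraries the Snord median was 8.18 to 12.0 RPKM and the Snora median 1.92 to 3.40 RPKM. Scarna genes had medians of 395 and 602 RPKM in Q175 and Q7 microglia, 157 and 175 RPKM in Q175 and Q7 macrophages, and 0.61 to 2.49 RPKM in BV2 cells. Snord genes held 64.3 and 67.7% of the member reads in Q175 and Q7 microglia, 78.3 and 79.4% in Q175 and Q7 macrophages, and 79.8 to 87.2% in BV2 cells.

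All 4 primary libraries lay above all 6 BV2 libraries for 106 of 109 members, against 21.3% of 11790 genes and 15.4% of 448 other transcripts shorter than 200 bases. Of the 109 members, 11 had under 2 BV2 libraries at 1 RPKM or more and met the rule with the help of their high primary levels, so the count is a description. Among the 98 with 2 or more such BV2 libraries, it was 96, against 16.6% of 10350 genes chosen the same way. The reverse order, with all primary libraries below all BV2 libraries, held for 1 member and for 18.9% of genes. The median log2 difference of primary over BV2 cells, from mean RPKM with 1 added, was 6.98 for Snord genes (126-fold), 8.13 for Snora (281-fold) and 6.82 for Scarna (113-fold), against 0.18 for all genes and 0.49 for the other short transcripts. More than 100-fold separated the means for 75 members and more than 10-fold for 99, while 102 and 390 of all 11790 genes, members included, passed these folds. No test was made, because cell source and culture both differ between the primary and BV2 libraries and cannot be told apart.

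Depth limits the BV2 side of this contrast. One read on a transcript of 70 bases is worth 1.02 to 1.33 RPKM in these libraries, the median Snord gene had 5 to 10 reads, the median Snora gene 2 to 5, and 11 to 19 members per library were at 0. None was at 0 in microglia, and 1 was at 0 in each macrophage library. Snord90 (mm9 chr2:37255581-37255648, minus strand, in Rc3h2; all member coordinates are mm9) had no read in any BV2 library. It stood at 4553 and 7124 RPKM in Q175 and Q7 microglia and at 1989.9 and 3978 RPKM in Q175 and Q7 macrophages. A limit of 3 reads over the 6 BV2 libraries together allows 0.593 RPKM, so its mean was at least 7435-fold higher in primary cells. Snord123 was low everywhere, at 2.00 and 5.37 RPKM in Q175 and Q7 microglia, 5.05 and 3.04 RPKM in Q175 and Q7 macrophages, and 0 in BV2 cells, a mean at least 8.46-fold higher by the same limit. Placing the genes without BV2 reads at their bounds left each class median at the value given. That outcome was fixed beforehand, since Snord90 stayed above its class median at the bound and Snord123 and Snora35 already lay below theirs.

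Snord1c (chr11:116533819-116533896, plus strand, in 1810032O08Rik) ran the other way. It had 0.272 to 1.72 RPKM (1 to 4 reads) in the primary libraries and 5.84 to 16.7 RPKM (5 to 18 reads) in BV2 cells. Its neighbours in the same gene, Snord1a and Snord1b, did not. The ratio of mean RPKM in primary over BV2 cells, with nothing added, was 317 for Snord1a, 67.5 for Snord1b and 0.083 for Snord1c.

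Other short RNAs without a poly(A) tail showed the contrast as well, as a description of a list put together after its values were seen. The mean ratio of primary over BV2 cells was 138 for Rmrp, the RNA of RNase MRP, 724 for Rpph1, the RNA of RNase P, 1938 for the minor spliceosomal Rnu11, 5534 for Rnu12 and 1605 for the vault RNA Vaultrc5, and 116 for Rnu73b. For Terc, the telomerase RNA, it was 5.64. For long nuclear RNAs it was 2.68 for Malat1, 1.93 for Neat1 and 1.78 for Xist, and the median fold of all genes, with 1 RPKM added to each mean, was 1.13. Whether the amount of RNA without poly(A) tails that passed into the libraries has a part in the contrast was not tested.

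Among the most abundant Snord genes, some were shared by both primary cell types and others stood high in microglia. Snord2 (chr16:23109026-23109093, plus strand), which guides methylation of 28S ribosomal RNA in humans, had 24987 and 33788 RPKM in Q175 and Q7 microglia and 33354 and 49632 RPKM in Q175 and Q7 macrophages. Snord104 (chr11:106362305-106362377, plus strand) had 34864 and 35861 RPKM in Q175 and Q7 microglia, against 3873 and 2953 RPKM in Q175 and Q7 macrophages. Snord104 separated the cell types across genotypes. Snord2 was lower in microglia than in macrophages within each genotype, but Q7 microglia (33788 RPKM) overlapped with Q175 macrophages (33354 RPKM).

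Snord73a (chr3:85942713-85942780, minus strand, in Rps3a1) stood at 25741 and 39063 RPKM in Q175 and Q7 microglia and at 2118 and 1026 RPKM in Q175 and Q7 macrophages. Snord49b was at 22978 and 37801 RPKM in Q175 and Q7 microglia and at 2153 and 1327 RPKM in Q175 and Q7 macrophages. Both were at least 10 times as abundant in either microglial library as in the macrophage libraries, and both were lower in Q175 than in Q7 microglia and higher in Q175 than in Q7 macrophages. Snord55 and Snord17 (chr2:144091718-144091938, minus strand, in Snx5) also separated the cell types. Snord55 had 19318 and 27207 RPKM in Q175 and Q7 microglia and 4356 and 4588 RPKM in Q175 and Q7 macrophages, and Snord17 had 18420.4 and 26115 RPKM in Q175 and Q7 microglia and 2007 and 2091 RPKM in Q175 and Q7 macrophages. Snord15b had 14919 and 17959 RPKM in Q175 and Q7 microglia and 1989.9 and 1747 RPKM in Q175 and Q7 macrophages.

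Among Snora genes, Snora28 and Snora81 led in microglia. Snora28 had 12002 and 14116 RPKM in Q175 and Q7 microglia and 1091 and 1148 RPKM in Q175 and Q7 macrophages. Snora81 (chr16:23110843-23111006, plus strand) had 14099 and 14041 RPKM in Q175 and Q7 microglia and 118 and 95.1 RPKM in Q175 and Q7 macrophages, a level in macrophages below the Snora median. Snora24 (chr3:123210855-123210984, minus strand), which guides pseudouridylation of 18S ribosomal RNA in humans, was alone among the leading Snora genes in having near-equal levels, at 4142 and 4616 RPKM in Q175 and Q7 microglia and 4548 and 5320.4 RPKM in Q175 and Q7 macrophages. Snora30, Snora3, Snora16a and Snora74a were at 8657 and 9322, 8067 and 7515, 7172 and 8165, and 5881 and 5628 RPKM in Q175 and Q7 microglia. In macrophages Snora30 and Snora3 stood at 134.7 and 89.5 RPKM and at 169 and 147 RPKM in Q175 and Q7 cells. Snora16a and Snora74a stood at 1031 and 664 RPKM and at 1191 and 1259 RPKM in Q175 and Q7 macrophages.

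Among the 9 Scarna genes, Scarna3a, at 2909 and 2672 RPKM, Scarna2, at 1704 and 2759 RPKM, and Scarna3b, at 1606 and 1466 RPKM, led in Q175 and Q7 microglia. In Q175 and Q7 macrophages Scarna3a had 448 and 349 RPKM, Scarna2 had 329.99 and 184 RPKM and Scarna3b had 157 and 184 RPKM. Scarna10 was instead highest in macrophages, with 395 and 638 RPKM in Q175 and Q7 microglia and 979.8 and 922 RPKM in Q175 and Q7 macrophages. Scarna13 had 438 and 602 RPKM in Q175 and Q7 microglia and 207 and 175 RPKM in Q175 and Q7 macrophages. Scarna8 had 388 and 404 RPKM in Q175 and Q7 microglia and 80.9 and 62.2 RPKM in Q175 and Q7 macrophages. These and the leading Scarna genes other than Scarna10 were higher in either microglial library than in either macrophage library. So were Scarna6, at 135 and 217 RPKM in Q175 and Q7 microglia and 96.5 and 75.5 RPKM in Q175 and Q7 macrophages, and Scarna9, at 189 and 202 RPKM in Q175 and Q7 microglia and 116 and 74.997 RPKM in Q175 and Q7 macrophages. In BV2 cells Scarna9 (29.6 to 46.2 RPKM) and Scarna2 (15.5 to 25.5 RPKM) were the only Scarna genes above 10 RPKM in every library, while Scarna17 reached 1.52 to 22.4 RPKM there and 30.8 and 33.0 RPKM in Q175 and Q7 microglia and 27.8 and 17.9 RPKM in Q175 and Q7 macrophages.

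Of the 109 members, 104 lie on the same strand inside the span of another gene of the table, in 77 different host genes. The 5 without such a host were Scarna17, Scarna2, Snora30, Snord104 and Snord89. Ribosomal protein genes were 22 of the hosts and held 31 members, and 16 hosts with 24 members were non-coding. In 20 hosts there were 2 or more members, 47 in all.

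**Figure D2:**
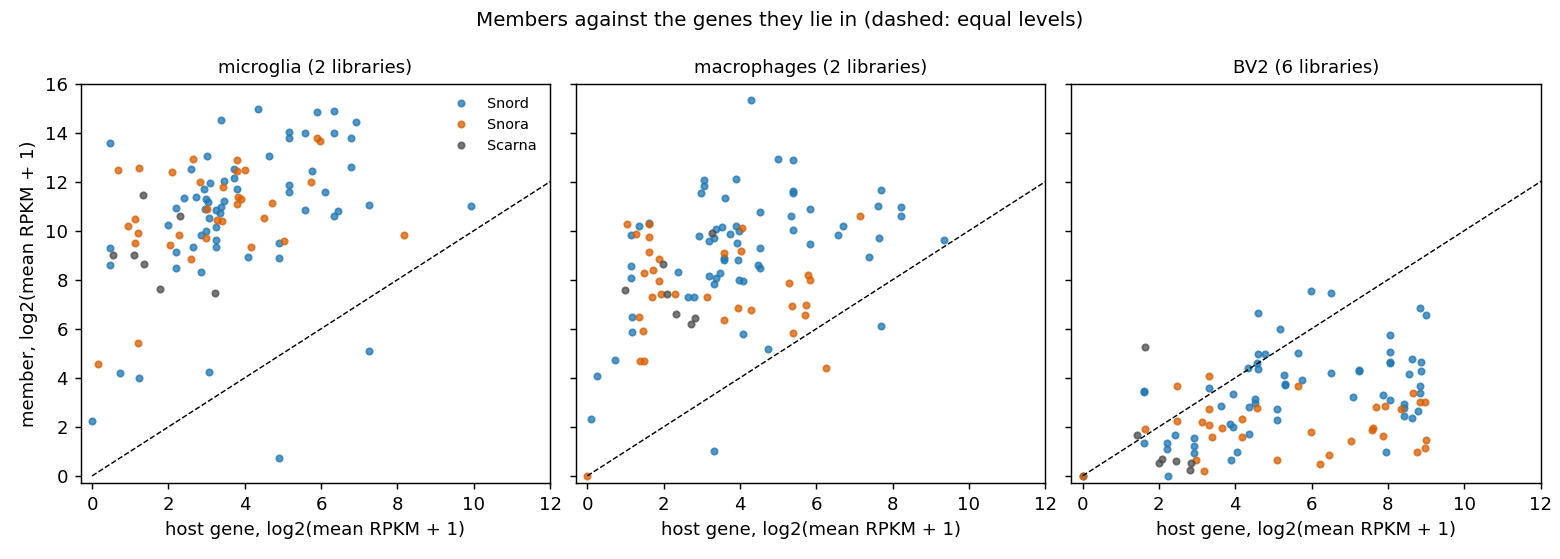
Member level against the level of its host gene, each as log2(mean RPKM + 1), in microglia (2 libraries), macrophages (2 libraries) and BV2 cells (6 libraries), with a dashed line at equal levels. In Q175 and Q7 microglia 99 of 101 members lie above their hosts in each library, while in BV2 libraries 12 to 17 of 100 do.

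Per length, members stood far above their hosts in primary cells and below them in BV2 cells. The median ratio of member to host RPKM was 205 and 221 in Q175 and Q7 microglia, 46.8 and 38.4 in Q175 and Q7 macrophages, and 0.0723 to 0.154 in BV2 libraries. It was lower for Snora than for Snord genes in each BV2 library, where it was 0.0174 to 0.0336 for Snora and 0.0919 to 0.227 for Snord. Members exceeded their host in 99 and 99 of 101 cases in Q175 and Q7 microglia, in 98 and 98 of 101 in Q175 and Q7 macrophages, and in 12 to 17 of 100 in BV2 cells. The rank correlation of member with host level across members was 0.418 and 0.426 in Q175 and Q7 microglia, 0.357 and 0.294 in Q175 and Q7 macrophages and 0.218 to 0.401 in BV2 libraries, given as a description of points that share libraries and hosts.

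Of the 77 hosts, 42 lay below all BV2 libraries in all primary libraries and 9 above. Among 11790 genes these shares were 18.9% below and 21.3% above. All 22 ribosomal protein hosts had lower levels in all primary libraries than in all BV2 libraries, with library medians of 8.44 to 17.7 RPKM in primary and 292 to 349 RPKM in BV2 cells. The 31 members inside them had a median 178-fold higher level in primary cells. Rpl23a, at 0.44 and 0.317 RPKM in Q175 and Q7 microglia, 1.93 and 0.478 RPKM in Q175 and Q7 macrophages and 293 to 381 RPKM in BV2 cells, is an example, and Snord4a inside it had 10040.2 and 14471 RPKM in Q175 and Q7 microglia. The counting of reads that ribosomal protein genes share with their processed pseudogenes is not known here, so these host levels are uncertain. Of the 16 non-coding hosts 5 were above and 4 below in all primary libraries, against 21.3% and 18.9% of genes. Their 24 members had a median 107-fold higher level. The 39 other hosts, with 4 above and 16 below, held members with a median 238-fold higher level.

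Gas5, a non-coding host known for growth arrest, was counted over 2550 of the 3371 bases of its span, so that its value may hold reads of the snoRNAs within it. It had 867 and 1098 RPKM in Q175 and Q7 microglia, 677 and 618 RPKM in Q175 and Q7 macrophages and 18.5 to 44.9 RPKM in BV2 cells. Snhg8, annotated as one block around Snora24, had 719.8 and 807 RPKM in Q175 and Q7 microglia, 769 and 899 RPKM in Q175 and Q7 macrophages and 9.48 to 23.7 RPKM in BV2 cells. Both had the order of the members they contain, and the 2 members in one-block hosts were left out of the ratios above. With hosts counted over less than 0.5 of their span, 95 members remained, and the median ratios were 220 and 253 in Q175 and Q7 microglia, 48.7 and 44.7 in Q175 and Q7 macrophages and 0.0759 to 0.172 in BV2 cells.

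Few symbols of the known host families are in the table. Of the 10 snoRNA symbols of the Gas5 list only Snord47 is in it, of the 8 of the Snhg1 list only Snord22, and of 12 RNAs of pre-ribosomal RNA processing, the class of U3 and U8, only Snord22. Snord47 had 1750.1 and 2313 RPKM in Q175 and Q7 microglia, 929 and 623 RPKM in Q175 and Q7 macrophages and 55.8 to 72.6 RPKM in BV2 cells. Snord22 had 7868 and 8863 RPKM in Q175 and Q7 microglia, 1299.7 and 955 RPKM in Q175 and Q7 macrophages and 21.6 to 44.3 RPKM in BV2 cells. All 5 symbols of the Rpl13a list were present. With 1 RPKM added to each mean, they were 62.9- to 498-fold higher in primary than in BV2 cells. Among them Snord32a, Snord33 and Snord34 had 15553, 12989 and 2867 RPKM in Q175 microglia and 6958, 2975 and 1151 RPKM in Q175 macrophages, and Snord35a had 3411 RPKM and 3400.1 RPKM. Of the neuronal imprinted list, 2 of 6 symbols are in the table and neither is a member.

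Promoter sequences of 4 hosts are shown because ribosomal protein and Snhg genes are known to start transcription within a run of pyrimidines, the 5′ terminal oligopyrimidine tract. The sequences below span 70 bases before to 30 bases from the start, taken from RefSeq (GRCm38.p6), with capitals on a run of 7 or more C or T within 20 bases either side of the start. Snhg1 (chr19:8723417-8723516, plus strand) and Snhg12 (chr4:132308608-132308707, plus strand) stood higher at 24 h in Nmu than in the other BV2 cells, as given below, Rpl13a (chr7:45128716-45128815, minus strand) holds 4 members, and Eif4a2 (chr16:23107398-23107497, plus strand) holds the pair that differed most between cell types and has no such run.
Snhg1: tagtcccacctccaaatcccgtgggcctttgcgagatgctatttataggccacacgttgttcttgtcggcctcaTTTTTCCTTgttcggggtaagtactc
Snhg12: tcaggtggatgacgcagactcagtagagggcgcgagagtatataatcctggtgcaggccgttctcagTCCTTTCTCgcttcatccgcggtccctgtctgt
Rpl13a: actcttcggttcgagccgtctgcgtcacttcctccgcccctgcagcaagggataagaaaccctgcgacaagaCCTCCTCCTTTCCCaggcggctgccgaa
Eif4a2: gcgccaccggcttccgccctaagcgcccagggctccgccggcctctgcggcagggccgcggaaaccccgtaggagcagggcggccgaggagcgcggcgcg
Searched on the transcribed strand alone, such a run was present in 19 of 58 host promoters (32.8%), in 8 of 15 ribosomal protein hosts (53.3%), in 5 of 7 Gas5 and Snhg hosts (71.4%) and in 6549 of all 27025 promoters (24.2%). The 58 are the hosts, of 77, that matched the RefSeq table by symbol. A match describes the letters in this window and is no evidence of how the gene is regulated.

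In the comparison of the primary cell types, microglia had higher levels of most members than macrophages. The levels were fitted with limma on log2(RPKM + 1) with cell type and genotype as terms. With 4 libraries and 1 residual degree of freedom, limma gave each gene the same standard error of 0.26, so these p-values rest on 1 shared spread, and a threshold of 0.05 was applied to p-values adjusted over all 10687 genes tested. Of 108 members tested, 91 were called higher and 8 lower, against 18.2% of all genes called higher and 49.2% called lower. All 34 called Snora genes of 35 were higher. For Snord genes 50 of 64 were higher and 7 lower, and for Scarna genes 7 of 9 were higher and 1 lower.

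The median log2 difference of microglia minus macrophages was 2.81 for Snora, 1.38 for Snord and 1.43 for Scarna genes, against -0.53 for all genes and 1.11 for 330 other transcripts shorter than 200 bases, of which 205 were called higher and 63 lower. Within the Q175 pair the medians were 2.54 for Snora and 1.14 for Snord, and within the Q7 pair 3.07 and 1.78. The microglia and macrophage libraries also differ in source and isolation, and in bulk RNA fewer cells of a type and less RNA per cell cannot be told apart. With quantile normalization the Snord median was 0.21 and the Snora median 1.93, and with no filter on low values no member was called, at medians of 1.36 and 2.81.

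**Figure D3:**
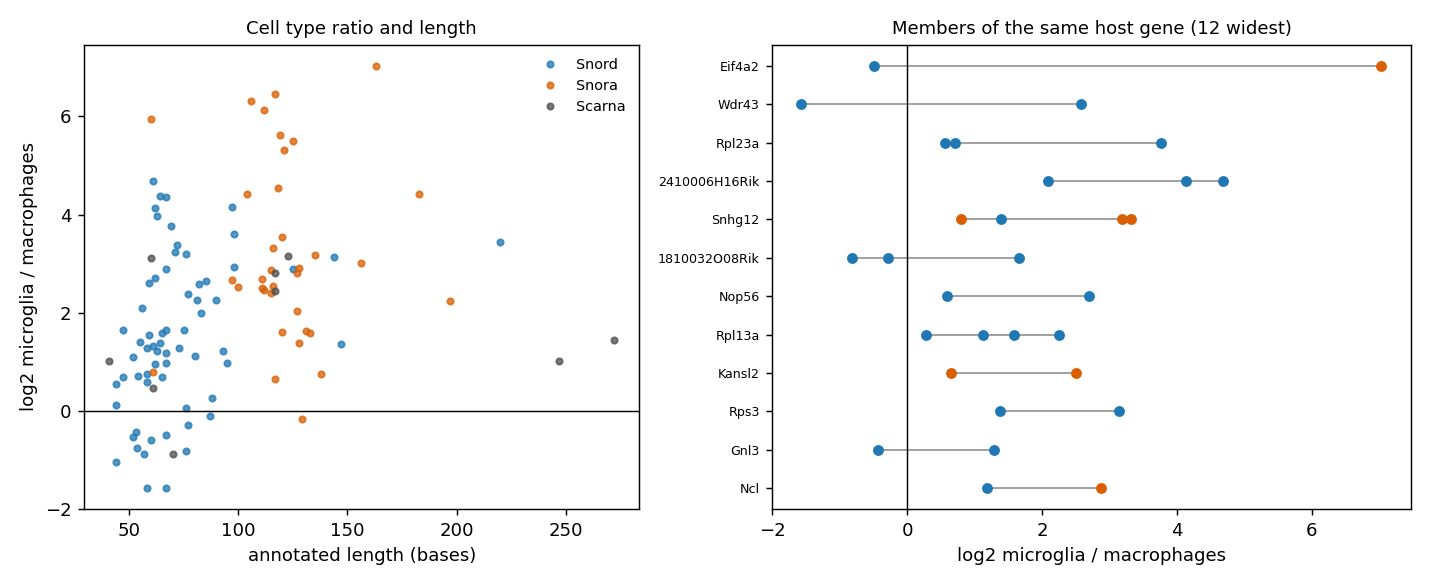
Log2 ratio of microglia over macrophages (means of 2 libraries each) against annotated length in bases for each member, and the same ratio for members that share a host gene, for the 12 hosts with the widest spread, with a grey line across each host. Ratios are of mean RPKM with 1 added. Eif4a2 holds the widest pair, Snord2 at a ratio of 0.708 and Snora81 at a ratio of 131.

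Snora81, which guides pseudouridylation of 28S ribosomal RNA in humans, had the highest difference among members, 7.04 (SE 0.26, adjusted p = 1.73e-149 by limma). Its values were 14099 and 14041 RPKM in Q175 and Q7 microglia and 118 and 95.1 RPKM in Q175 and Q7 macrophages. Snora65 (chr2:32818821-32818938, plus strand, in Rpl12) had 5029 and 5630.0 RPKM in Q175 and Q7 microglia and 61.4 and 57.4 RPKM in Q175 and Q7 macrophages, a log2 difference of 6.46. Snora30, Snora41 and Snora20 followed at 6.34, 6.25 and 6.02. In none of the 5 did the cell types overlap, which the choice of the largest differences all but fixes beforehand. Snora41 had 1123 and 1838 RPKM in Q175 and Q7 microglia and 29.5 and 10.6 RPKM in Q175 and Q7 macrophages, and Snora20 had 5244 and 6293 RPKM in Q175 and Q7 microglia and 121 and 63.4 RPKM in Q175 and Q7 macrophages. Snord73a (4.43), Snord49b (4.12), Snord17 (3.42), Snord104 (3.39) and Snord55 (2.36) were the called members among the Snord genes with the highest levels.

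The members lower in microglia were Snord53 (-1.58), Snord52 (-1.57), Snord45b (-1.04), Scarna10 (-0.92), Snord66 (-0.87), Snord1b (-0.83), Snord58b (-0.75) and Snord45c (-0.59). Snord52, which guides methylation of 28S ribosomal RNA in humans, had 2529.8 and 2723 RPKM in Q175 and Q7 microglia and 7880 and 7705 RPKM in Q175 and Q7 macrophages. Snord53 was far less abundant, at 13.5 and 22.2 RPKM in Q175 and Q7 microglia and 66.5 and 43.4 RPKM in Q175 and Q7 macrophages. Snord2 (-0.49, adjusted p = 0.0916) and Snora24 (-0.17, adjusted p = 0.575) did not pass the limma threshold.

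Snora35 is hosted by Htr2c, the serotonin 2C receptor gene, and was read in microglia alone. It had 12.4 RPKM (42 reads) in Q175 and 32.4 RPKM (131 reads) in Q7 microglia, and no read in macrophages or in BV2 cells. It met the rule only through the 2 microglia libraries, so these values are a description of what the rule admitted. The limit that 0 reads allow, 3 reads over the group, is 0.326 RPKM for the 2 macrophage libraries and 0.337 RPKM for BV2 cells. Htr2c itself had 0.139 and 0.105 RPKM in Q175 and Q7 microglia and 0 in the other 8 libraries. The neuron markers, at sums of 0.156 and 0.442 RPKM in Q175 and Q7 microglia and at 0 in macrophages, have the same order as Snora35. In microglia 7096 of 10687 genes were also lower in Q175 than in Q7 cells. The part of RNA from other brain cells was not tested. Of the astrocyte markers, Gfap had 0.026 and 0.032 RPKM in Q175 and Q7 microglia and Aqp4 was at 0. The oligodendrocyte marker Mbp had the reverse order, with 3.42 and 2.91 RPKM in Q175 and Q7 microglia and 7.02 and 4.41 RPKM in Q175 and Q7 macrophages. The microglia were sorted as CD11b+ CD45low, and how far the sort left out other brain cells was not tested.

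Members of one host gene did not share one ratio between cell types. The ratios in this paragraph are of mean RPKM with 1 added. Over the 20 hosts with 2 or more members, the highest ratio of microglia over macrophages was a median 3.34-fold above the lowest, 17 hosts had a spread of 2-fold or more, and 5 held members on both sides of equality. In Eif4a2, a translation initiation factor gene, Snord2 had a ratio of 0.708 and Snora81 of 131, a 185-fold spread between introns of one transcript. Wdr43 held Snord53 at 0.337 and Snord92 at 5.97, and Rpl23a held Snord42a at 1.47 and Snord4a at 13.6. The 4 members of Snhg12 lay between 1.73 for Snora61 and 9.97 for Snora44, and 4 members of Rpl13a between 1.21 for Snord35a and 4.77 for Snord33. Rabggtb, at 0.486 to 0.662, and Rpl3, at 1.05 to 1.61, were hosts with little spread.

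The median log2 difference of microglia minus macrophages was 2.25 for 93 members with a tested host and -0.44 for the 69 hosts, against -0.53 for all genes. Of the hosts 46 were called in either direction, against 67.3% of all genes, and 38 of the 93 members had the sign of their host. Length moved with the ratio among Snord genes. The rank correlation was 0.397 over all 65, and 0.0632 over the 46 of 60 bases or more, as a description. Snord genes shorter than 70 bases (39) had a median log2 ratio of 1.19, those of 70 to 99 bases (22) of 2.13 and those of 100 or more (4) of 3.01. For Snora genes the correlation was -0.141 and for Scarna genes 0.142. The part of the size selection on the gel was not tested.

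The genes for proteins of the snoRNA pathway were mostly lower in microglia, unlike the members. Of 29 genes for core proteins, assembly, transport and processing, 27 were tested between the primary cell types. None was called higher and 17 were called lower in microglia, against 49.2% of all genes called lower, with a median log2 difference of -0.73, against -0.53 for all genes. Dbr1, the enzyme that opens intron lariats, had 2.94 and 3.22 RPKM in Q175 and Q7 microglia and 21.1 and 38.7 RPKM in Q175 and Q7 macrophages, a log2 difference of -2.86. Xpo1, an export receptor that also carries snoRNA precursors, was lower by a log2 difference of -2.32. Nop10, of the H/ACA core, fell by 0.94 and Nop58, of the C/D core, by 0.72. All 5 processing genes, 6 of 9 assembly genes, 4 of 7 Cajal body and transport genes, 1 H/ACA core gene and 1 C/D core gene were among the 17.

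For the non-coding hosts, of 17 fixed symbols 9 were tested, with 4 called higher and 2 lower in microglia, against 18.2 and 49.2% of all genes. Snhg12 (2.18), Snhg9 (1.54), Snhg1 (1.11) and Gas5 (0.59) were higher, and Snhg3 (-1.45) and Snhg6 (-0.86) lower, on the same log2 scale.

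Between the genotypes no member passed the test. In the fit over both cell types, none of 108 members was called for Q175 minus Q7 at an adjusted p under 0.05, against 0.337% of all genes (12 higher and 24 lower), and 6 members had an unadjusted p under 0.05, against 2.65% of all genes. Snord90 had the lowest adjusted p, 0.263 by limma, with a log2 difference of -0.82 (SE 0.26). Its 4553 RPKM in Q175 microglia stood below 7124 RPKM in Q7 microglia, and its 1989.9 RPKM in Q175 macrophages below 3978 RPKM in Q7 macrophages, log2 differences of -0.65 and -0.999. The other members with the largest differences and enough reads were Snord85 (0.67), Snora35 (-0.66) and Snora5c (0.59), none past the threshold. Snora5c had 797 and 1003 RPKM in Q175 and Q7 microglia and 230.4 and 80.0 RPKM in Q175 and Q7 macrophages, so that its genotype order turned between cell types.

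Within each cell type the genotypes have 1 library each, and no test is possible. In microglia 88 of 108 members were lower in Q175 than in Q7 cells, with a median log2 difference of -0.25 against -0.08 for all genes. At a fold of 1.5, 11 members were lower and none higher, against 2.19% of all genes lower and 0.954% higher. In macrophages 88 members were higher in Q175 cells, with a median of 0.37 against 0.18 for all genes, and 29 were at least 1.5-fold higher and 2 lower, against 9.99% and 3.05% of all genes. Snord, Snora and Scarna medians were -0.27, -0.20 and -0.10 in microglia and 0.40, 0.31 and 0.36 in macrophages.

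**Figure D4:**
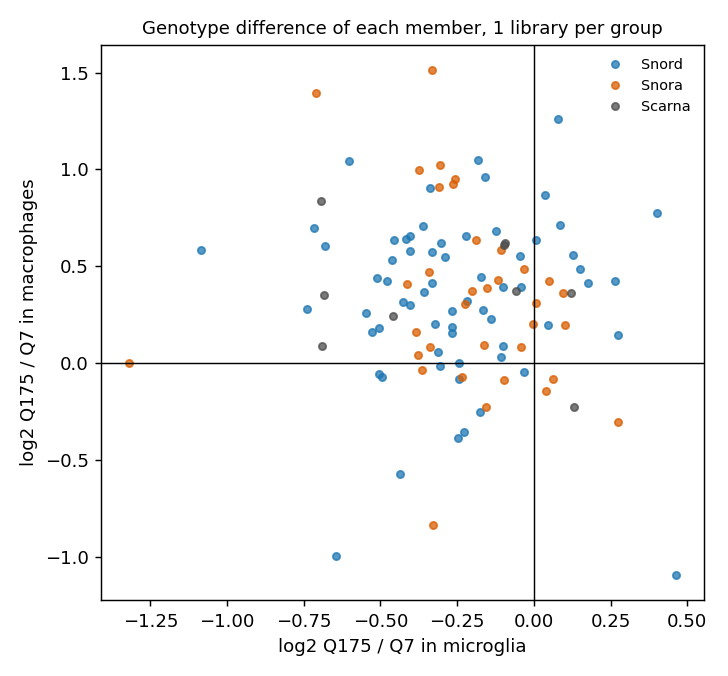
Log2 ratio of Q175 over Q7 in macrophages against the same ratio in microglia, 1 library per group, 1 point per member, coloured by class. Of the tested members 72 lie at the upper left, lower in Q175 microglia and higher in Q175 macrophages, and 4 in the lower right.

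Lower in Q175 microglia and higher in Q175 macrophages at once were 72 members, and 4 had the opposite pattern, 16 were higher in both and 15 lower in both. Among all genes the same 4 counts were 5176, 1164, 2344 and 1854. The member share of reads, by contrast, was lower in Q175 than in Q7 cells of both types, at 4.35 and 5.16% in Q175 and Q7 microglia and at 1.12 and 1.14% in Q175 and Q7 macrophages. In macrophages this order leans on Snord2, which was higher in Q7 cells. Snord2 alone held 106770 of 535813 member reads in Q175 and 100423 of 345258 in Q7 macrophages. Scaled to the reads of all other genes, the member medians were -0.15 in microglia and 0.32 in macrophages. With 1 library a side, library and genotype cannot be told apart.

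In BV2 cells neither the huntingtin fragments nor the time gave a call for any member. The 98 members that passed the filter on low values (62 Snord, 31 Snora and 5 Scarna) were fitted among 10350 genes with construct and time as terms, on 6 libraries with 2 residual degrees of freedom. For the mutant fragment against the empty vector, 0.087% of all genes and no member were called, and 23 members (of 98) had an unadjusted p under 0.05, against 15.3% of all genes. For the wild-type fragment against the empty vector the share of genes was 0.0%, with 9 members at an unadjusted p under 0.05, against 0.638% of all genes. For the mutant against the wild-type fragment 0.0676% of genes were called, and 17 members had an unadjusted p under 0.05, against 15.9% of all genes. For the second time against 24 h 0.0% of genes were called, and 16 members had an unadjusted p under 0.05, against 27.2% of all genes. The lowest adjusted p-values by limma were 0.124 for Snord7, 1.0 in the comparison of wild-type fragment and vector, 0.137 for Snord4a and 0.0597 for Snora5c in the same order of comparisons, on averages of 1.17, 5.17 and 3.67 reads for the 3 named. Calls appeared when single libraries were left out, for members and for genes in general. Without Nmu at 24 h, 15 of 98 members were called for the mutant fragment minus the vector, against 14.0% of all genes, and 16 for the mutant minus the wild-type fragment, against 16.5%. Without Nmu at the second time these were 19 members against 31.8% of genes, and 18 members against 3315 of 10350 genes. Leaving out either Nwt library gave 9 members for the mutant fragment minus the vector, against 2.21% of genes, and leaving out either Nmu library gave 22 members for the times, against 43.2% of genes.

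The medians of the classes were small. For the mutant fragment minus the empty vector they were 0.24 for Snord, -0.25 for Snora and 0.14 for Scarna genes, with 46 of 62 Snord genes higher and 22 of 31 Snora genes lower, against a median of 0.00 for all genes. For the mutant minus the wild-type fragment they were 0.13, -0.12 and 0.19, and for the wild-type fragment minus the vector 0.17, -0.04 and 0.29. These comparisons share libraries. For the second time minus 24 h they were -0.13, -0.18 and -0.44, against 0.10 for all genes.

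**Figure D5:**
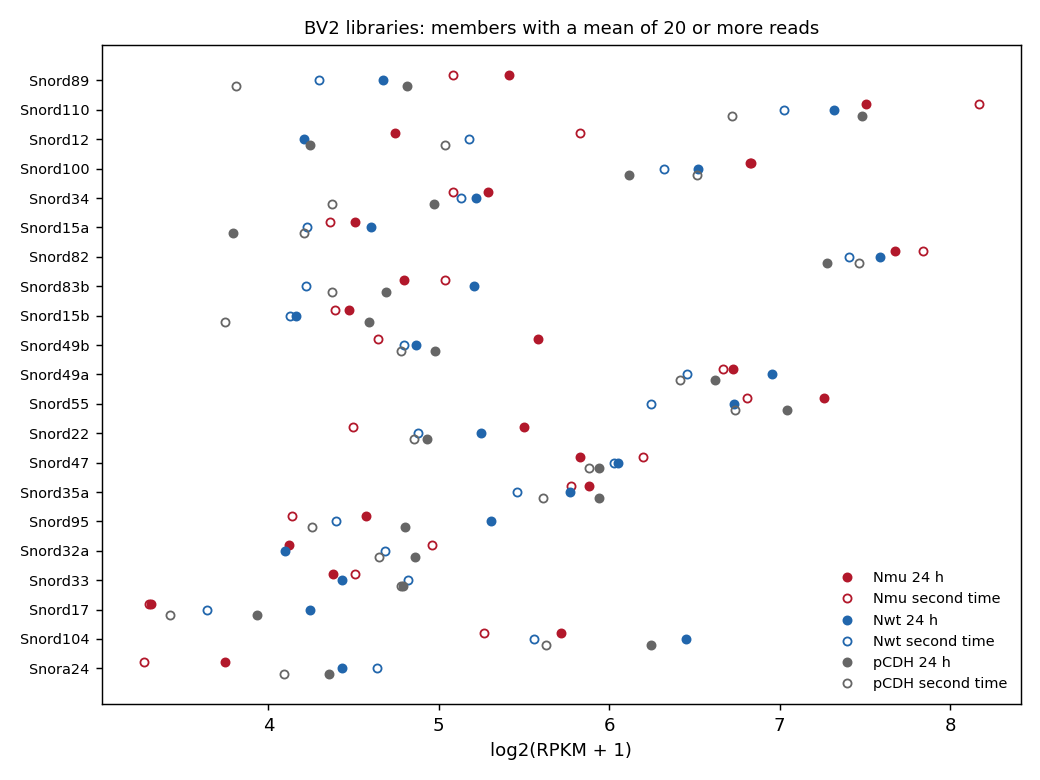
Levels of the 21 members with a mean of 20 or more reads in BV2 cells, as log2(RPKM + 1), for Nmu, Nwt and pCDH cells at 24 h (filled) and the second time (open), ordered by the mean difference of Nmu minus pCDH. Snord89 lies at the top, with 41.5, 24.5 and 27.1 RPKM in Nmu, Nwt and pCDH cells at 24 h, and Snora24 at the bottom.

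Only 21 members had a mean of 20 or more BV2 reads, which sets how firmly single genes can be read. Over them the mutant fragment minus the empty vector had a median of 0.18 and a range of -0.72 to 0.94. Snord89 (chr1:39605592-39605685, minus strand) had 53, 30 and 28 reads at 24 h and 33, 22 and 17 reads at the second time in Nmu, Nwt and pCDH cells. As RPKM this is 41.5, 24.5 and 27.1 at 24 h and 33.0, 18.7 and 13.0 at the second time, so both Nmu libraries were above the 4 others. Its log2 difference was 0.94 (SE 0.23, adjusted p = 0.221 by limma) against the vector and 0.76 (adjusted p = 0.249) against the wild-type fragment.

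Snora24 had 12.4, 20.6 and 19.5 RPKM at 24 h and 8.64, 23.9 and 16.04 RPKM at the second time in Nmu, Nwt and pCDH cells. Both Nmu libraries lay below the other 4, with 22 and 12 reads. The log2 difference was -0.72 (SE 0.22, adjusted p = 0.27 by limma) against the vector and -1.03 (adjusted p = 0.189) against the wild-type fragment. Snord110 (chr2:130101251-130101309, plus strand, in Nop56) had 181, 158 and 178 RPKM at 24 h and 287, 129 and 105 RPKM at the second time in Nmu, Nwt and pCDH cells. It differed at the second time mainly, with a log2 difference of 0.73 (SE 0.36, adjusted p = 0.413 by limma) over both times.

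Snord12 (chr2:166890793-166890858, plus strand) had 25.8, 17.5 and 18.0 RPKM at 24 h and 55.7, 35.2 and 31.8 RPKM at the second time in Nmu, Nwt and pCDH cells. Every construct was higher at the second time, with a log2 difference of 0.95 (SE 0.14, adjusted p = 0.062 by limma), and Nmu was the highest construct at both (0.64 against the vector, adjusted p = 0.225). Snord104 (-0.65, adjusted p = 0.0857), Snord95 (-0.63, adjusted p = 0.0969) and Snord89 (-0.57, adjusted p = 0.146) had the other large differences of the second time minus 24 h by limma. For the wild-type fragment minus the vector, Snord34 (0.50), Snord15a (0.41), Snord55 (-0.40) and Snord32a (-0.37) had the largest differences, all at an adjusted p of 1.0 by limma. Snord17 (-0.64, adjusted p = 0.277) completed the 4 largest for the mutant minus the wild-type fragment, with Snord110 (0.67).

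Several host genes had wide differences between constructs at 24 h, though none was called. Snhg1 had 152, 31.0 and 28.4 RPKM at 24 h and 22.3, 31.7 and 30.5 RPKM at the second time in Nmu, Nwt and pCDH cells, while Snord22 in its intron had 44.3, 37.1 and 29.5 RPKM and 21.6, 28.4 and 28.0 RPKM. Snhg12 had 25.6, 7.96 and 7.33 RPKM at 24 h in the same order. Nop56, whose protein is a core component of C/D particles, had 177, 54.7 and 49.0 RPKM at 24 h and 98.1, 76.5 and 81.7 RPKM at the second time. Ncl, the gene of nucleolin and host of Snord82, had 85.8, 43.4 and 36.7 RPKM at 24 h and 37.1, 78.3 and 95.1 RPKM at the second time, whereas Snord82 had 203, 192 and 154 RPKM and 229, 168 and 176 RPKM. Of the 91 members tested with a host, 50 had its sign for the mutant fragment minus the vector, and the median of the 64 hosts was 0.13 with none called. Over the 18 of these members with 20 or more reads, 12 had the sign of the host.

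The 29 pathway proteins were all tested in BV2 cells and none was called in any of the 4 comparisons. Their median log2 difference was 0.20 for the mutant fragment minus the vector (20 higher), -0.02 for the wild-type fragment minus the vector, 0.21 for the mutant minus the wild-type fragment and 0.62 for the second time minus 24 h. In the comparison of times 28 of 29 were higher, with a lowest adjusted p of 0.062 by limma, against 0.10 for the median of all genes. Nop10 is an example, with 118, 103 and 83.1 RPKM at the second time and 59.3, 41.4 and 47.2 RPKM at 24 h in Nmu, Nwt and pCDH cells.

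The chromatin data address whether the host promoters carried H3K4me2, a mark of active promoters and enhancers, or bound PU.1, C/EBPα or C/EBPβ, transcription factors of myeloid cells. Each antibody has 1 library per construct at 24 h, so the peak lists are compared by counts with no test. An H3K4me2 region lay within 1 kb of the start of 71, 71 and 72 of the 75 hosts tested in BV2 cells (94.7, 94.7 and 96.0%) in Nmu, Nwt and pCDH cells, against 89.9%, 89.6% and 90.0% of all genes tested. In 70 hosts it was present in all 3 constructs. The hosts with none were 2700038G22Rik, Chd8 and Ckap5, Tsr1 lacked it in Nmu cells alone and Tpt1 in Nwt cells alone. Within 200 bases of the start there was one at 29, 33 and 34 hosts (38.7, 44.0 and 45.3%) in Nmu, Nwt and pCDH cells, a smaller share than the 6208, 6433 and 6821 of 10350 genes.

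PU.1 peaks lay at 29, 20 and 34 hosts (38.7, 26.7 and 45.3%) in Nmu, Nwt and pCDH cells, against 33.6%, 26.4% and 39.4% of genes, and 20 hosts had one in all 3. C/EBPα peaks lay at 8, 13 and 6 hosts (10.7, 17.3 and 8.0%), against 8.75%, 23.4% and 9.55% of genes. C/EBPβ peaks lay at 36, 47 and 27 hosts (48.0, 62.7 and 36.0%), against 41.1%, 54.7% and 30.8% of genes. The order of the constructs at hosts is thus that of genes in general for PU.1 and C/EBPβ, and the number of peaks called differs between libraries. Nop56 and Rpl37 had PU.1 and C/EBPβ peaks in all 3 constructs, while Rpl12, Rpl23a and Rpl32 had none of any factor. Of the 5 members without a host, Scarna17, Scarna2 and Snord104 had an H3K4me2 region at their own start in each construct. Scarna2 alone had a PU.1 peak, in each construct. C/EBPβ peaks lay at Scarna17, Scarna2 and Snord89 in each construct, and at Snord104 in Nwt and pCDH cells.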

How the data were processed

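Gene levels are RPKM, deposited by the authors as 1 table of 31641 RefSeq transcripts on mm9. Per the submitters' processing notes, STAR 2.0.3e, HOMER and edgeR were used for RNA and Bowtie and HOMER for ChIP-seq. The peak lists carry a score that the authors deposited, which is 1 throughout and was used for no ranking. HOMER peaks were called per library, per the file headers, with an input named after another macrophage source. Only peak positions were used here, with an overlap of 1 bp or more.

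One transcript per symbol, that of the highest mean RPKM, was used. Genes at 1 RPKM or above in 2 or more of the fitted libraries were tested on log2(RPKM + 1), a scale that understates fold changes of low values, with limma 3.58.1 in R 4.3.3 and Benjamini-Hochberg adjustment over all genes tested, and the method was tested on simulated data. Other values were computed with Python 3.11.15, pandas 2.3.3, numpy 2.4.6 and scipy 1.17.1. RPKM times length gave whole multiples of 1 read for 100% of low values within 0.1 reads, and implied reads rest on these steps. How reads mapping to several places were counted is not given in the sources used.

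Hosts are transcripts of the table whose span holds the member on the same strand, and 1 member with several candidates was assigned to one of them. The library number of a BV2 construct marks its labelled time, so the time term is the replicate block. The members and lists were chosen with earlier results of these data known. Named members are the 6 Snord and 6 Snora genes with the highest mean RPKM or reads, all Scarna genes, list members and, per comparison, the 4 largest differences among members with 20 or more reads. Others named, such as those nearest the rule or with a pattern of their own, were chosen after their values were seen. Alternatives to the pseudocount, filter, normalization, transcript choice, model and libraries are given at the end.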

Additional observations from a re-analysis of the deposited data

Results flagged for a closer look

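The genotype difference of the Snord genes had opposite signs in the 2 primary cell types. Its median log2 value for Q175 minus Q7 was -0.27 in microglia and 0.40 in macrophages. The Snora genes did the same, with -0.20 in microglia and 0.31 in macrophages. Each value rests on 1 library a side, and the difference between the cell types was not tested.

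For the wild-type fragment minus the empty vector, the Snora median stood at -0.14 for 24 h and at 0.12 for the second time. This difference was not tested either, and the median Snora gene had 2 to 5 reads in these libraries. No group holds 4 or more samples, so that no check for a single outlying sample applies.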

How the results depend on the processing

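The number of members, 109, was the same with a minimum of 5 RPKM and with one of 10 reads. In BV2 cells few reads limit every value. Members called for the mutant fragment minus the vector were 0, with 1 at a pseudocount of 0.1 and 0 to 19 when 1 library was left out: 15 without Nmu at 24 h, 19 without Nmu at the second time, 9 without either Nwt library and 1 without pCDH at 24 h. Leaving out 1 library gave 0 to 3 calls for the wild-type fragment minus the vector, and 1 to 18 for the mutant minus the wild-type fragment (16 without Nmu at 24 h, 18 without Nmu at the second time). For the times it gave 0 to 22 (22 without either Nmu library), and calls were 3 at a pseudocount of 5, 2 with 10 or more reads and 1 with no construct term. Without one library, the lone sample of its construct is assumed to vary like the others. With no replicate block (no time term) the 3 construct comparisons kept 0 calls, and the medians stayed at 0.24 for Snord and -0.25 for Snora genes (mutant fragment minus vector).

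The Snord median for the mutant fragment minus the vector was 0.16 at a pseudocount of 5, 0.14 with 10 or more reads and 0.24 to 0.34 with 1 library left out, and the Snora median was -0.47 to -0.13. For the wild-type fragment minus the vector the Snord median was 0.10 with 10 or more reads, and the Snora median -0.21 to 0.16 with 1 library left out. For the mutant minus the wild-type fragment, Snord was 0.0705 at a pseudocount of 5 and -0.0599 to 0.13 with 1 library left out, and Snora -0.34 to -0.12. For the second time minus 24 h, Snord was -0.19 at a pseudocount of 0.1, -0.29 with quantile normalization, -0.25 with voom and -0.26 to -0.0463 with 1 library left out, and Snora -0.31 to 0.0376.

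For microglia minus macrophages, no member was called with no filter on low values, and Snora81, Snora65, Snora30 and Snora41 were then short of the threshold. Snord and Snora medians were 0.21 and 1.93 with quantile normalization, 1.89 and 3.32 with voom, and 1.14 to 1.78 and 2.54 to 3.07 with 1 library left out. For Q175 minus Q7 they were -0.27 to 0.40 and -0.20 to 0.31 with 1 library left out. The median primary over BV2 difference was 5.87 for Snord and 5.80 for Snora genes with macrophages alone, and 6.70 to 7.31 and 7.71 to 8.44 with 1 library left out; this alternative was chosen after seeing the data. The causes were not tested. Of the other alternatives, 240 values for counts and medians and 409 for single genes kept direction and side of the threshold.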

Other observations

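The table also holds 9 RNAs annotated as small nucleolar under other symbols, which the naming rule leaves out. Gm12238 had 1030.1 and 1181 RPKM in Q175 and Q7 microglia, 186 and 135 RPKM in Q175 and Q7 macrophages and 0.731 to 2.32 RPKM in BV2 cells. AF357399, on chromosome 7, had 1739.6 and 1832 RPKM in Q175 and Q7 microglia, 52.7 and 35.2 RPKM in Q175 and Q7 macrophages and 0 to 6.77 RPKM in BV2 cells. These 2 have the order of the Snora members, with microglia above macrophages above BV2 cells.

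The other 7 lie on chromosome 12. AF357425 had 29.1 and 69.9 RPKM in Q175 and Q7 microglia and AF357426 had 4.21 and 7.96 RPKM, and both were at 0 in macrophages and BV2 cells. DQ267100, DQ267101, DQ267102, AF357355 and AF357359 were at 4.58 RPKM or less in microglia and at 0 elsewhere. The values of AF357425 and AF357426 are higher in Q7 than in Q175 microglia, which is also the order of Snora35 (12.4 and 32.4 RPKM in Q175 and Q7 cells) and of the summed neuron markers (0.156 and 0.442 RPKM). It is the general order too, since 88 of 108 members and 7096 of 10687 genes were lower in Q175 microglia. The part of RNA from neurons in these values was not tested.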
